A study of Homo sapiens with 18 samples.

Results

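Keratins and the other intermediate filament genes were followed through TGFβ-induced epithelial-mesenchymal transition (EMT) in 3 human non-small cell lung cancer cell lines. The members were the genes of the deposited expression table with a symbol made of KRT, a number and at most 1 letter, together with VIM, NES, DES, GFAP, PRPH, INA, NEFL, NEFM, NEFH, SYNM, LMNA, LMNB1 and LMNB2. They numbered 63 of the 19849 genes in the table, of which 50 were keratins and 13 were other filament genes. The rule rests on gene names and not on expression values, though the family was taken up with earlier results of these data known.

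A549, HCC827 and NCI-H358 are established lines from lung cancers. Parental cells of each line grew in RPMI1640 with serum and glutamine, and their mesenchymal derivatives grew in the same medium with 2 ng/ml TGFβ for 3 weeks according to the labels. The study's methods instead give a shorter range of exposure for A549 than for the other lines, so in comparisons between A549 and those lines the exposure and the line cannot be told apart. TGFβ was withdrawn the day before lysis, so that all 6 groups were lysed in medium without it. Total RNA of each group was hybridized to 3 Affymetrix U133 Plus 2.0 arrays, 18 in all. The labels do not say how the 3 arrays of a group relate. The study describes array data of this kind as separate biological samples made at one time, and all p-values measure the spread between such samples. Each derivative is a bulk culture, in which fewer cells that express a gene and less RNA per cell cannot be told apart.

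Intermediate filaments are the rope-like part of the cytoskeleton. In epithelial cells they are built of keratins, as obligate pairs of an acidic type I and a basic type II chain: KRT8 and KRT18 with KRT7 and KRT19 in simple epithelia such as that of the lung, KRT5 with KRT14 or KRT15 in basal cells, and a long series of others in differentiating skin and hair. Mesenchymal cells rely on vimentin (VIM), a type III protein, and the loss of keratins with a gain of vimentin is a classical description of EMT. Neurofilaments, nestin and synemin are type IV proteins known from neurons, progenitor cells and muscle, and the lamins (type V) line the inside of the nucleus in every cell.

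The labels were first set against marker genes. The 6 epithelial markers CDH1, EPCAM, CLDN4, CLDN7, ESRP1 and ST14 all fell in both HCC827 and NCI-H358, whereas CDH1 and EPCAM alone fell in A549 and 3 of the 6 were already near the low end of the signal scale in the parental cells. Of the 5 lung epithelial markers in the table, 4 were near that low end in both A549 groups, 2 in both HCC827 groups and 3 in both NCI-H358 groups. Of these 5, NAPSA fell in HCC827 (-4.71, adjusted p = 1.59e-14) and NKX2-1 fell in NCI-H358 (-1.06, adjusted p = 0.000154). The summed level of 7 fibroblast markers rose with the mesenchymal label, from between 9.08 and 9.26 to between 12.02 and 12.07 (log2) in A549, from between 8.79 and 9.11 to between 13.92 and 14.06 in HCC827 and from between 9.81 and 9.88 to between 12.81 and 12.89 in NCI-H358. COL1A1, COL3A1 and LUM rose in all 3 lines, COL1A1 by 3.42, 4.41 and 3.65 in A549, HCC827 and NCI-H358. The sum adds signals off the log2 scale, so genes with strong signal such as COL1A1 weigh most in it. Of these 7, PDGFRA, PDGFRB, DCN and THY1 passed no fold of 2 in any line. THY1 differed by 0.38, -0.20 and 0.22 in A549, HCC827 and NCI-H358. PDGFRA and DCN stayed near the low end in all 6 groups. Between 5 and 6 of 6 leukocyte markers, 4 and 5 of 5 endothelial markers and 6 and 7 of 7 neural markers were near the low end in each group. Of the neural list MBP alone fell past a fold of 2 in HCC827 and NCI-H358, and MBP and RBFOX3 did in A549. Of the leukocyte markers CD14 fell in A549 (-1.36, adjusted p = 2.68e-06 by limma). Of the endothelial markers KDR rose in NCI-H358 (1.60, adjusted p = 3.15e-07 by limma). No other gene of these 2 lists passed a fold of 2. The part of these markers in the results below was not tested.

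**Figure D1:**
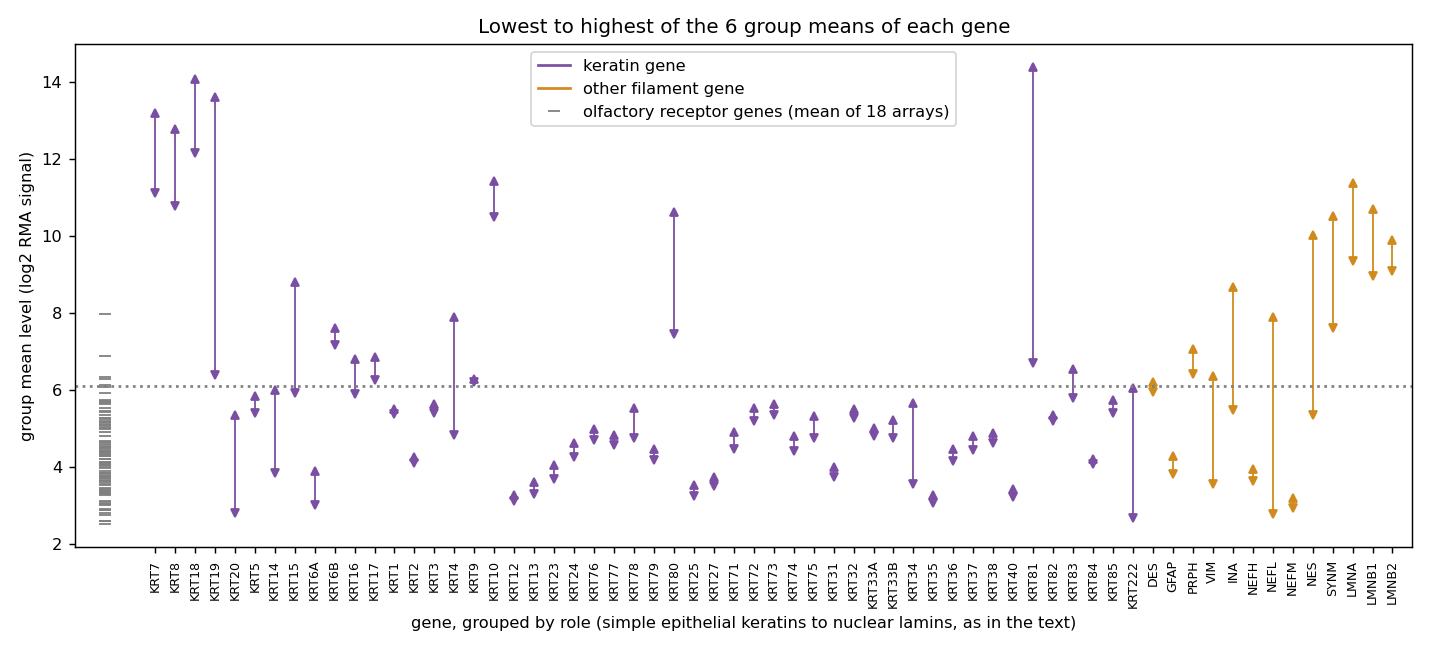
Vertical lines run from the lowest to the highest of the 6 group means (log2 RMA signal, 3 arrays a group) of each of the 63 genes, grouped by role; grey dashes on the left are the mean levels of 99 olfactory receptor genes and the dotted line is their 95th percentile, 6.09. For 39 genes the whole line lies below the dotted line; VIM crosses it only in mesenchymal A549 cells.

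Much of the family gave little signal in these cells. Levels are log2 signals after robust multi-array averaging (RMA), and the table has no detection calls, so 99 olfactory receptor genes, which lung cancer cells are taken not to use, gave a reference: a group mean at or below 6.09, the 95th percentile of their mean levels, is called near the low end here. Their median was 4.22. The line at 6.09 lies a little below the array medians (6.31 to 6.47), while the lowest value in the table was 2.05. A gene called near the low end can thus still rise or fall without crossing the line. By this measure 39 of the 63 genes (61.9%) were near the low end in all 6 groups, against 35.4% of all genes, 9 were so in some groups and 15 in none. Of the keratins 36 of 50 (72.0%) were near the low end throughout, including all 7 keratins of the hair follicle sheaths, 13 of 15 hair shaft keratins and 11 of 15 keratins of differentiated stratified epithelia. Of the 13 other filament genes GFAP, NEFM and NEFH were near it throughout. Probe sets differ in how strongly they bind, so a signal near the low end is not proof that a gene was silent, and levels of different genes are not ranked.

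The genes above the low end in all 6 groups included KRT7, KRT8, KRT18 and KRT19 of simple epithelia, KRT10, KRT80, KRT81 and the 3 lamins. KRT81, a hair shaft keratin, stood out by line. Its levels were 14.11, 14.14 and 14.24 in parental A549 cells, 6.54, 6.50 and 7.02 in parental HCC827 cells and 8.50, 8.52 and 8.26 in parental NCI-H358 cells. Relative to A549, the parental difference was -7.48 ± 0.11 (log2, SE) for HCC827 and -5.74 ± 0.11 for NCI-H358 (adjusted p = 2.81e-18 and 5.16e-17, limma), with no overlap. The derivatives differed less from their parental cells, by 0.22, 0.34 and 0.52 in A549, HCC827 and NCI-H358 (adjusted p = 0.123, 0.0156 and 0.00089). The A549 means, 14.17 and 14.38, lay close to the highest value in the table, 14.62, where a rise has little room to show.

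The parental cells differed in other filament genes too. At a difference above 1 on the log2 scale and an adjusted p below 0.05, 10 members differed between parental HCC827 and A549 cells (15.9%, against 18.8% of all genes), 11 between NCI-H358 and A549 (17.5%, against 20.4%) and 7 between NCI-H358 and HCC827 (11.1%, against 15.2%). Each share was below that of all genes. Compared with both other lines, parental A549 cells had less KRT19, KRT15 and KRT4 signal and more KRT81, KRT222, INA, NEFL, SYNM and VIM signal. The VIM and KRT222 means were near the low end in all 3 parental groups. In parental A549 cells KRT4 was near it too, and NEFL, at 6.18, lay just above the line at 6.09.

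The promoters show a sequence feature of the family that the choice of genes did not use. RefSeq's promoter table (GRCh38.p14, 250 bases before to 50 after a gene's start, the first entry of each gene) had an entry of 300 bases for 39 of the 63 genes. The letters TATAAA, on the sense strand, were in 16 of these 39 (41.0%), against 6.01% of the 15018 promoters of genes in the expression table. All 16 began between 53 and 27 bases before the start (first base at -53 to -27), and 15 of them were keratin promoters, of 31 keratins with an entry. Of the 27 members with an entry that were near the low end in all groups 14 held the letters, and of the other 12 members 2 did, KRT10 and PRPH. The E-box CACCTG, searched on both strands, was in 7 of the 39 (17.9%) and in 19.6% of all; TGANTCA, the AP-1 motif, was in none of the 39 and in 5.62% of all, and the palindrome GTCTAGAC, bound by SMAD proteins, in none and in 0.14%. A match is a string of letters and not a shown site. Promoters are printed for 4 members whose RNA moved in different ways: KRT4, which fell in all 3 lines, KRT34, which rose in HCC827 and is the one promoter with TATAAA among the 10 with an entry whose gene passed a fold of 2 in any line, and VIM and NES. Each is written 5′ to 3′ on the gene's strand, with TATAAA in capitals; only KRT34 holds it, and none of the 4 holds the other 3 motifs.
KRT4, chr12:52814067-52814366, minus strand: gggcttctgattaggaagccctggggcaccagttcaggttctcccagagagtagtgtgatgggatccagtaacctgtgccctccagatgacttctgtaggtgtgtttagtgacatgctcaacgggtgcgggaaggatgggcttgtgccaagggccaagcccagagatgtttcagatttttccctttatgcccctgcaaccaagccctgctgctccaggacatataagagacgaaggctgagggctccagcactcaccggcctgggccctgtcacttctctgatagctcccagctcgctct
KRT34, chr17:41382257-41382556, minus strand: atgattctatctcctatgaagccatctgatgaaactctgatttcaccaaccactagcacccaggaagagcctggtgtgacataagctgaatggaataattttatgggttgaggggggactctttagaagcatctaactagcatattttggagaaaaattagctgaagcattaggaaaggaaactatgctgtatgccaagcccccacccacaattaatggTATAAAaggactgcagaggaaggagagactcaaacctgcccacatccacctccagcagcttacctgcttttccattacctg
VIM, chr10:17227991-17228290, plus strand: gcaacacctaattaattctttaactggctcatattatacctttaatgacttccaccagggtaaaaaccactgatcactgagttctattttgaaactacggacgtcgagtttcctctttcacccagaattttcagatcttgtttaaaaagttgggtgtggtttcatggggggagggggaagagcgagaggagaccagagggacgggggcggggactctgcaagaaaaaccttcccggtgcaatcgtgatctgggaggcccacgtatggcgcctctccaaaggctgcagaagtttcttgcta
NES, chr1:156677358-156677657, minus strand: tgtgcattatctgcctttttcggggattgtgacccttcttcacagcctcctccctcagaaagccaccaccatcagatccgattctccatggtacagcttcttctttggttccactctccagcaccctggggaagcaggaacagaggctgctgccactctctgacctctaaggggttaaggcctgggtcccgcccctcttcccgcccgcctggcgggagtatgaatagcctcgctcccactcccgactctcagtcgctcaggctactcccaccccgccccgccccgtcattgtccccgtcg

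The main comparison asked which filament genes changed when each line became mesenchymal. KRT19 fell in all 3 lines, 9.13-fold in A549, 11.9-fold in HCC827 and 29.2-fold in NCI-H358; KRT4 fell 6.22-fold in HCC827 and 8.0-fold in NCI-H358, and KRT80 fell 5.74-fold in A549. The folds are ratios of signal, and those of KRT4 end in derivative means near the low end, where they are no exact measure of RNA. The simple epithelial keratins KRT7, KRT8 and KRT18 fell between 2.02-fold and 3.98-fold in HCC827 and NCI-H358, whereas in A549 KRT8 fell 1.46-fold, KRT18 fell 1.27-fold and KRT7 differed by 0.00 on the log2 scale. VIM and NES rose in HCC827 and NCI-H358, by between 4.07-fold and 4.95-fold in signal, with every VIM mean of these lines near the low end. In all 3 lines the median change of the 63 genes was close to 0 (0.02, 0.01 and 0.03 in A549, HCC827 and NCI-H358), as was that of all genes (-0.02, 0.01 and 0.02). Of the 63 genes 41, 43 and 43 were near the low end in both groups of these lines. The median thus says little about the genes with more signal.

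At a fold above 5 and an adjusted p below 1e-05, the study's thresholds, 2 members fell in A549 (KRT19 and KRT80, 3.17% of members, against 0.736% of all genes), 2 in HCC827 (KRT19 and KRT4, against 1.63%) and 2 in NCI-H358 (KRT19 and KRT4, against 1.36%). By limma 0 members rose at these thresholds in any line, where 1.17%, 1.32% and 0.811% of all genes did in A549, HCC827 and NCI-H358. A plain t-test gave 0 as well, but its adjusted p was below 1e-05 for no member in either direction. At an unadjusted p below 0.05 by limma, 7, 10 and 7 members were higher (11.1%, 15.9% and 11.1%, against 19.7%, 23.5% and 24.4% of all genes) and 14, 15 and 12 were lower (22.2%, 23.8% and 19.0%, against 29.7%, 27.2% and 22.2%). At a fold above 2 and an adjusted p below 0.05, 5 members fell in A549 (KRT19, KRT80, KRT4, INA and LMNA, 7.94%, against 3.87% of all genes) and 2 rose (KRT222 and NEFL, 3.17%, against 4.15%). In HCC827, 8 fell (KRT19, KRT4, KRT20, KRT15, KRT8, KRT7, KRT80 and KRT18, 12.7%, against 6.58%) and 5 rose (NES, KRT14, VIM, KRT34 and SYNM, 7.94%, against 4.89%). In NCI-H358, 7 fell (KRT19, KRT4, KRT15, KRT18, KRT8, LMNB1 and KRT7, 11.1%, against 5.42%) and 2 rose (VIM and NES, 3.17%, against 3.96%). Since the smallest two-sided p of an exact permutation test is 0.1 with 3 arrays a group, calls rest on limma's fit across all genes.

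**Figure D2:**
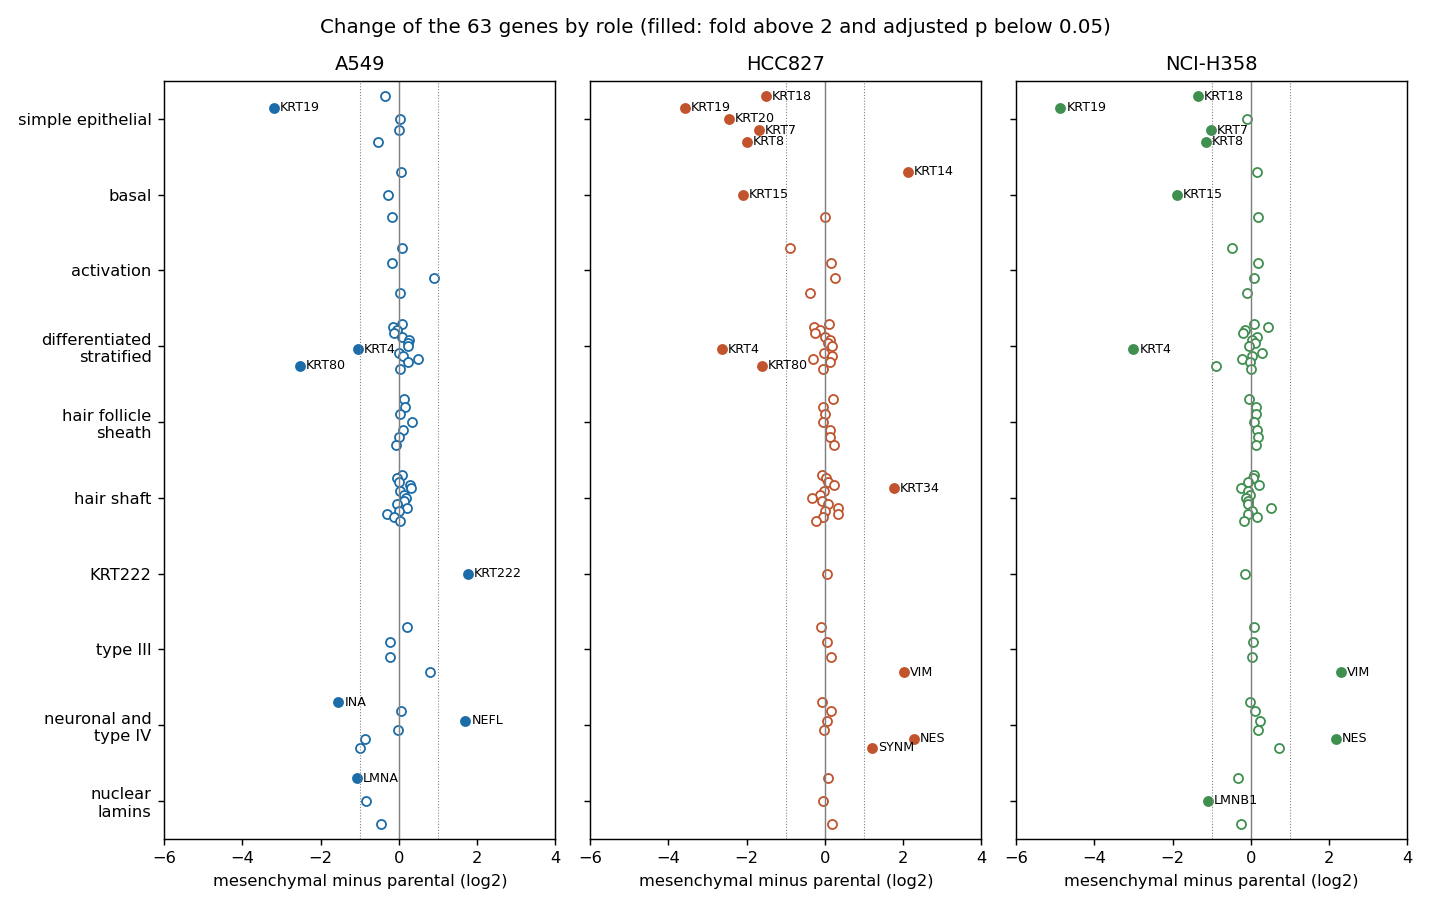
Each circle is 1 of the 63 genes, placed by its mesenchymal minus parental difference (log2, from 3 arrays against 3) and by its role, in A549, HCC827 and NCI-H358; filled, named circles passed a fold above 2 (dotted lines) with an adjusted p below 0.05. KRT19 lies farthest to the left in each line, and the hair follicle sheath keratins gather around 0.

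KRT19 is the smallest keratin and a standard marker of simple epithelium. In A549 its levels were 9.59, 9.51 and 9.61 in parental and 6.22, 6.45 and 6.47 in mesenchymal cells, a difference of -3.19 ± 0.10 (SE, 3 arrays a group, adjusted p = 1.17e-13 by limma). In HCC827 they were 13.60, 13.59 and 13.59 against 10.29, 9.98 and 9.79, a difference of -3.57 ± 0.10 (adjusted p = 2.30e-14). In NCI-H358 they were 13.16, 13.16 and 13.14 against 8.25, 8.20 and 8.42, a difference of -4.87 ± 0.10 (adjusted p = 1.16e-15). No array of a derivative reached its parental group, and mesenchymal HCC827 cells still had a signal above that of parental A549 cells. The fall was largest in NCI-H358, whose change minus that of A549 was -1.68 ± 0.14 and minus that of HCC827 -1.30 ± 0.14 (adjusted p = 6.06e-08 and 1.66e-06). The change in HCC827 minus that in A549 was -0.38 ± 0.14 (adjusted p = 0.0423), short of the difference of 1 set for a call.

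KRT18 and KRT8 are the partners that form the first filaments of simple epithelia, and they moved together by line. KRT18 went from 13.99, 14.08 and 14.09 to 12.59, 12.54 and 12.53 in HCC827 (-1.50 ± 0.05, adjusted p = 5.28e-13) and from 13.48, 13.54 and 13.47 to 12.12, 12.13 and 12.20 in NCI-H358 (-1.35 ± 0.05, adjusted p = 2.59e-12). In A549 it went from 14.05, 13.99 and 13.99 to 13.62, 13.67 and 13.71, a smaller difference of -0.34 ± 0.05 (adjusted p = 6.15e-05). The groups did not overlap in any line, and the fall was smaller in A549 (change in HCC827 minus that in A549 -1.16 ± 0.08, and for NCI-H358 -1.0 ± 0.08, adjusted p = 2.72e-09 and 1.66e-08). KRT8 went from 12.72, 12.80 and 12.79 to 10.84, 10.79 and 10.70 in HCC827 (-1.99 ± 0.07, adjusted p = 2.80e-13), from 11.95, 12.09 and 12.00 to 10.91, 10.76 and 10.92 in NCI-H358 (-1.15 ± 0.07, adjusted p = 3.90e-10) and from 12.72, 12.60 and 12.54 to 12.03, 12.07 and 12.12 in A549 (-0.54 ± 0.07, adjusted p = 5.18e-06). Here too all derivative arrays lay below their parental arrays. For KRT8 the change in HCC827 minus that in A549 was -1.45 ± 0.10 (adjusted p = 2.92e-09). For NCI-H358 minus A549 it was -0.605 ± 0.10 (adjusted p = 7.64e-05), short of the difference of 1 set for a call. KRT8 fell less in NCI-H358 than in HCC827 (0.84 ± 0.10, adjusted p = 2.62e-06), where KRT18 did not differ detectably (0.16 ± 0.08, adjusted p = 0.13).

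KRT7, a type II keratin of glandular and lung epithelium, did not differ detectably in A549. Its levels there were 13.14, 13.19 and 13.20 before and 13.17, 13.17 and 13.19 after EMT (difference 0.00 ± 0.10, adjusted p = 0.996), and the groups overlapped. In HCC827 it went from 12.99, 13.24 and 13.27 to 11.74, 11.42 and 11.25 (-1.69 ± 0.10, adjusted p = 3.69e-10). In NCI-H358 it went from 12.20, 12.18 and 12.00 to 11.07, 11.09 and 11.18 (-1.02 ± 0.10, adjusted p = 3.23e-07), a change that lay at the fold of 2 and fell short of it without the first or the second parental array or the first mesenchymal array (-0.98, -0.99 and -0.99). Relative to the change in A549, that in HCC827 was -1.69 ± 0.15 and that in NCI-H358 -1.02 ± 0.15 (adjusted p = 5.84e-08 and 2.29e-05). KRT20, the intestinal keratin of this group, was at most 3.11 on the 15 other arrays but at 6.69, 4.50 and 4.88 in parental HCC827 cells. In the HCC827 derivative it was at 2.89, 2.94 and 2.91 (-2.44 ± 0.35, adjusted p = 1.45e-05). Both HCC827 groups were near the low end by their means, and without the first parental array the difference was -1.78.

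**Figure D3:**
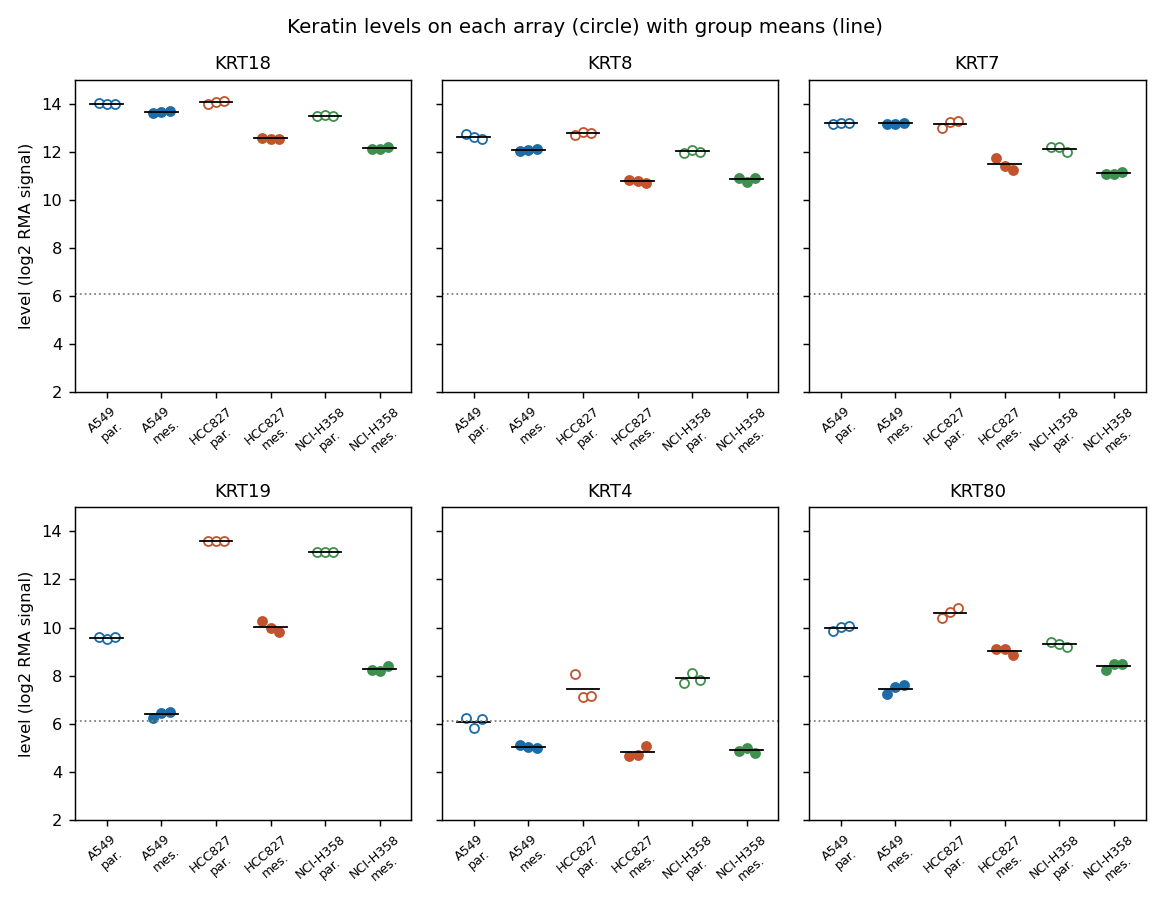
Levels (log2 RMA signal) of KRT18, KRT8, KRT7, KRT19, KRT4 and KRT80 on each of the 18 arrays (open circles parental, filled circles mesenchymal) with the group mean as a line. The dotted line at 6.09 is the limit at or below which a mean is called near the low end. KRT19 drops in all 3 lines, KRT7 stays level in A549, and KRT4 ends below the dotted line in each derivative.

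KRT4, a type II keratin of non-keratinizing stratified epithelium such as the esophagus, fell to the low end of the scale. In HCC827 its levels were 8.07, 7.12 and 7.17 before and 4.67, 4.70 and 5.08 after EMT (-2.64 ± 0.20, adjusted p = 6.30e-09), and in NCI-H358 they were 7.69, 8.12 and 7.83 against 4.87, 4.99 and 4.78 (-3.00 ± 0.20, adjusted p = 1.48e-09). Without the first parental array the HCC827 difference was -2.33, only just past a fold of 5. In A549 the KRT4 levels were 6.21, 5.83 and 6.19 against 5.09, 5.02 and 4.97 (-1.05 ± 0.20, adjusted p = 0.000332), a call that was lost without the first or the third parental array (-0.98 and -1.0). Both A549 means were near the low end. The 3 derivatives overlapped there and differed by -0.21 to 0.06 (adjusted p between 0.398 and 0.827). Of the parental cells A549 lay below both other lines, whose arrays overlapped (NCI-H358 minus HCC827 0.43 ± 0.20, adjusted p = 0.0834). KRT80, a keratin of many epithelia that is found near the cell margin, went the other way round by line. It fell from 9.85, 10.01 and 10.05 to 7.21, 7.54 and 7.60 in A549 (-2.52 ± 0.12, adjusted p = 1.90e-11), from 10.40, 10.65 and 10.80 to 9.09, 9.09 and 8.87 in HCC827 (-1.60 ± 0.12, adjusted p = 5.14e-09) and from 9.42, 9.30 and 9.17 to 8.25, 8.47 and 8.48 in NCI-H358 (-0.90 ± 0.12, adjusted p = 7.98e-06). A549 thus lost more KRT80 than NCI-H358, by 1.62 ± 0.17 (adjusted p = 5.93e-07), and than HCC827, by 0.92 ± 0.17 (adjusted p = 0.000253), the latter short of a difference of 1. Of the other 13 keratins of differentiated epithelia none passed a fold of 2 in any line; KRT10, the suprabasal keratin of skin, differed by -0.16, -0.28 and 0.45 in A549, HCC827 and NCI-H358 (adjusted p = 0.0909, 0.00404 and 7.15e-05).

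Basal keratins split. KRT15, a type I keratin of basal and progenitor cells, fell from 9.02, 8.66 and 8.70 to 6.60, 6.75 and 6.78 in HCC827 (-2.09 ± 0.16, adjusted p = 7.89e-09) and from 7.79, 7.74 and 7.88 to 5.61, 5.81 and 6.32 in NCI-H358 (-1.89 ± 0.16, adjusted p = 3.55e-08). In A549, at 6.53, 6.56 and 6.44 against 5.90, 6.48 and 6.35, its groups overlapped (-0.27 ± 0.16, adjusted p = 0.199). The KRT15 mean of mesenchymal NCI-H358 cells, 5.92, was near the low end. KRT14, the type I partner of KRT5 in basal cells, was at 3.70, 3.68 and 4.19 in parental HCC827 cells and at 6.08, 5.75 and 6.12 in their derivative (2.13 ± 0.15, adjusted p = 4.02e-09), without overlap but with both means near the low end. It differed by 0.06 in A549 and 0.15 in NCI-H358 (adjusted p = 0.796 and 0.513), and the changes differed (HCC827 minus A549 2.07 ± 0.22, NCI-H358 minus HCC827 -1.98 ± 0.22, adjusted p = 7.43e-07 and 1.61e-06). KRT5 itself differed by -0.17, 0.00 and 0.17 (adjusted p = 0.137, 0.981 and 0.137) and was near the low end in all 6 groups. The activation keratin KRT17, induced in wounded epithelium, differed by -0.17, 0.15 and 0.19 (adjusted p = 0.269, 0.35 and 0.237). None of the 4 activation keratins in the table passed a fold of 2, and their changes lay between -0.90 and 0.90 over the 3 lines.

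Keratins of hair and its sheath showed little change in signal. All 7 sheath keratins and 13 of the 15 hair shaft keratins were near the low end in all 6 groups, where a fall had less room to show. Over the 7 sheath keratins the changes lay between -0.07 and 0.34, and over the 15 hair shaft keratins all but KRT34 lay between -0.34 and 0.52. KRT34 was at 3.54, 4.02 and 4.14 in parental HCC827 cells and at 5.61, 5.73 and 5.67 in the derivative (1.77 ± 0.16, adjusted p = 5.46e-08). Its arrays did not overlap, and the changes differed (HCC827 minus A549 1.46 ± 0.22, NCI-H358 minus HCC827 -2.01 ± 0.22, adjusted p = 4.44e-05 and 1.69e-06), with all 6 group means near the low end. KRT222, a keratin-like gene without a known filament role, rose in A549, from 4.17, 4.35 and 4.31 to 5.86, 6.18 and 6.09 (1.77 ± 0.09, adjusted p = 4.82e-11), without overlap but with both means near the low end. It stayed at 2.53 to 2.84 in the 12 arrays of HCC827 and NCI-H358, and both changes differed from that in A549 (-1.72 ± 0.13 and -1.92 ± 0.13, adjusted p = 8.63e-09 and 2.13e-09).

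VIM, the filament protein of mesenchymal cells, was measured by a probe set whose mean was near the low end in 5 of the 6 groups. Its levels were 5.55, 5.70 and 5.49 in parental and 6.43, 6.41 and 6.27 in mesenchymal A549 cells, a difference of 0.79 ± 0.14 (adjusted p = 0.000132) that did not reach a fold of 2. They were 3.50, 3.41 and 3.73 against 5.47, 5.54 and 5.71 in HCC827 (2.03 ± 0.14, adjusted p = 1.31e-09) and 3.97, 3.63 and 3.24 against 5.88, 5.98 and 5.90 in NCI-H358 (2.31 ± 0.14, adjusted p = 2.97e-10). Every derivative lay above its parental cells with no overlap, and the means of the HCC827 and NCI-H358 derivatives, 5.57 and 5.92, stood beside 5.58 in parental A549 cells. Minus parental A549 cells, the parental difference was -2.03 ± 0.14 for HCC827 and -1.97 ± 0.14 for NCI-H358 (adjusted p = 6.75e-10 and 9.09e-10). The probe set's ID ends in _x_at, a suffix that Affymetrix gives where probes can also match other sequences, and the table holds no second VIM row to set beside it. Of the 63 members 8 had such an ID: VIM, LMNA, KRT6B, KRT8, KRT10, KRT17, KRT18 and KRT33A. The other type III genes DES, GFAP and PRPH differed by -0.23 to 0.21 and passed no threshold.

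**Figure D4:**
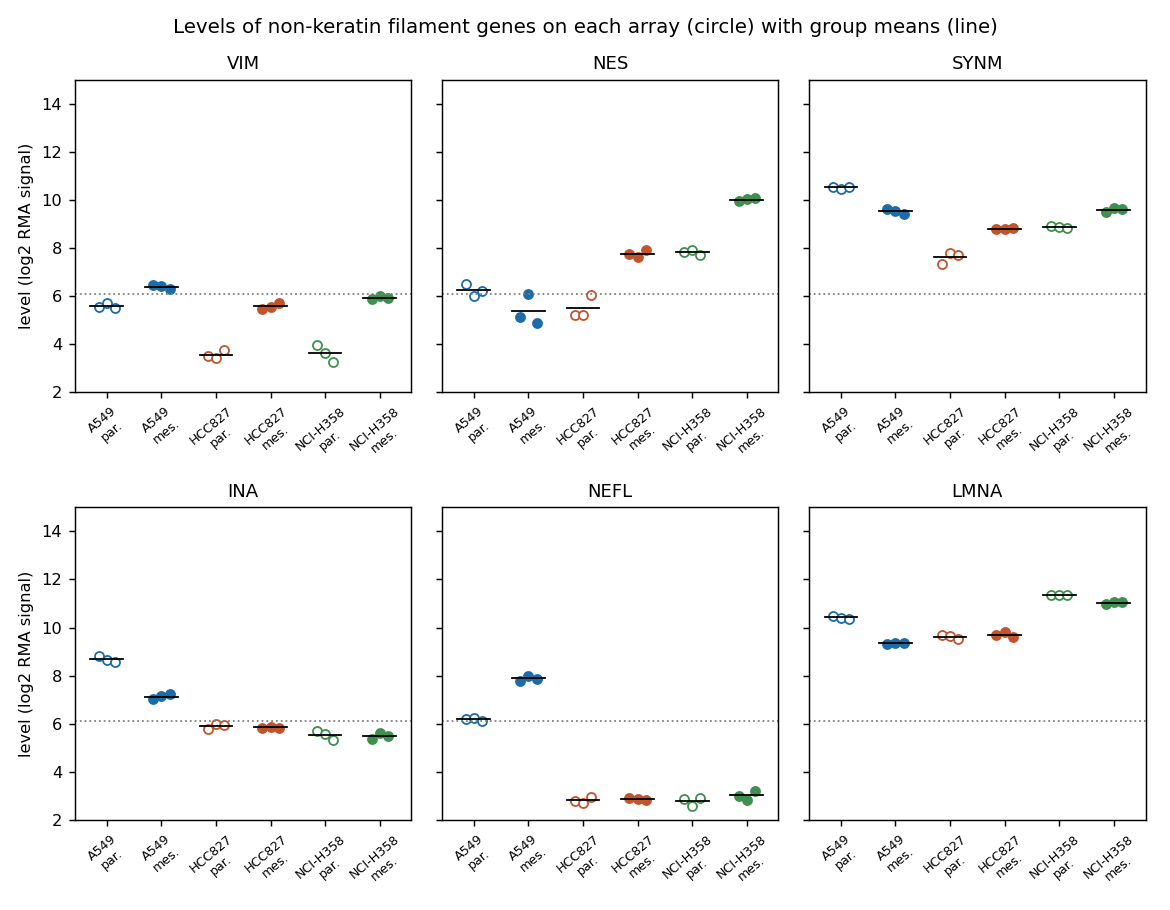
Levels (log2 RMA signal) of VIM, NES, SYNM, INA, NEFL and LMNA on each of the 18 arrays (open circles parental, filled circles mesenchymal) with the group mean as a line. The dotted line at 6.09 is the limit at or below which a mean is called near the low end. NES and SYNM move up in HCC827 and NCI-H358 and down in A549, where the NES groups overlap. INA and NEFL have means above the dotted line in A549 only, in both of its groups.

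Nestin (NES), a type IV protein of progenitor cells that assembles with vimentin, rose in HCC827 from 5.21, 5.22 and 6.02 to 7.75, 7.63 and 7.90 (2.28 ± 0.25, adjusted p = 8.03e-07) and in NCI-H358 from 7.85, 7.91 and 7.72 to 9.94, 10.02 and 10.07 (2.19 ± 0.25, adjusted p = 1.57e-06). In A549 it was at 6.49, 5.99 and 6.21 before and 5.10, 6.09 and 4.85 after EMT (-0.88 ± 0.25, adjusted p = 0.00913), with overlap through the second mesenchymal array; without that array the difference was -1.25 and passed a fold of 2. The NES means of parental HCC827 cells and of mesenchymal A549 cells, 5.48 and 5.35, were near the low end. Synemin (SYNM), a type IV protein that joins vimentin or desmin filaments, showed the same signs as NES. It was at 7.33, 7.79 and 7.69 against 8.80, 8.80 and 8.82 in HCC827 (1.20 ± 0.09, adjusted p = 8.64e-09), at 8.91, 8.88 and 8.84 against 9.48, 9.65 and 9.63 in NCI-H358 (0.71 ± 0.09, adjusted p = 6.93e-06) and at 10.55, 10.47 and 10.52 against 9.60, 9.52 and 9.43 in A549 (-1.0 ± 0.09, adjusted p = 1.33e-07). Without the second parental or the first mesenchymal A549 array the latter passed a fold of 2 (-1.02 and -1.04). The change in A549 was below that in HCC827 by 2.20 ± 0.13 and below that in NCI-H358 by 1.70 ± 0.13 (adjusted p = 6.44e-10 and 1.58e-08).

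The neuronal filament genes INA and NEFL had group means above the low end in A549 alone of the 3 lines. INA (alpha-internexin) fell there from 8.80, 8.64 and 8.58 to 7.02, 7.13 and 7.23 (-1.55 ± 0.09, adjusted p = 5.94e-10), while NEFL, the light neurofilament chain, rose from 6.21, 6.25 and 6.09 to 7.78, 8.0 and 7.86 (1.70 ± 0.10, adjusted p = 5.33e-10). No parental and mesenchymal array overlapped for either gene. In HCC827 and NCI-H358 both genes were near the low end in all groups, NEFL at 2.59 to 3.21, and differed by -0.06 and -0.03 (INA) and by 0.07 and 0.23 (NEFL; adjusted p between 0.0929 and 0.88 for the 4 values). Of the 7 neural markers MBP, a myelin gene, fell in A549 from a mean of 9.17 to 6.43 (-2.74, adjusted p = 8.3e-10 by limma). MBP fell in HCC827 and NCI-H358 too (-2.84 and -3.35). The other 6 were near the low end in both A549 groups, among them RBFOX3, which fell there (-1.75, adjusted p = 0.000258 by limma).

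The nuclear lamins were above the low end in every group. LMNA, which encodes lamins A and C, went from 10.50, 10.39 and 10.36 to 9.32, 9.38 and 9.36 in A549 (-1.07 ± 0.06, adjusted p = 5.55e-10), from 9.68, 9.66 and 9.53 to 9.67, 9.80 and 9.60 in HCC827 (0.07 ± 0.06, adjusted p = 0.438) and from 11.36, 11.37 and 11.35 to 10.99, 11.07 and 11.06 in NCI-H358 (-0.32 ± 0.06, adjusted p = 0.00054). Only in HCC827 did its groups overlap. LMNB1, the B-type lamin that proliferating cells are rich in, went from 10.52, 10.76 and 10.82 to 9.72, 9.52 and 9.61 in NCI-H358 (-1.09 ± 0.12, adjusted p = 1.21e-06) and from 9.57, 9.92 and 9.90 to 8.95, 8.91 and 8.96 in A549 (-0.85 ± 0.12, adjusted p = 2.15e-05). In HCC827 it was at 9.99, 9.77 and 9.81 against 9.66, 9.64 and 10.09 (-0.06 ± 0.12, adjusted p = 0.75), with overlap. LMNB2 differed by -0.47, 0.19 and -0.26 in A549, HCC827 and NCI-H358 (adjusted p = 0.000447, 0.11 and 0.0326).

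The lines were then compared in their changes, in the same fit. At a difference above 1 and an adjusted p below 0.05, 15 members changed unequally between HCC827 and A549 (23.8%, against 13.4% of all genes): VIM, NES, SYNM, INA, NEFL, LMNA and the keratins KRT4, KRT7, KRT8, KRT14, KRT15, KRT18, KRT20, KRT34 and KRT222. Between NCI-H358 and A549 there were 12 (19.0%, against 12.7%), and between NCI-H358 and HCC827 there were 5 (7.94%, against 11% of all genes): KRT14, KRT19, KRT20, KRT34 and LMNB1. Each of the 3 lines entered 2 of these comparisons with the same arrays.

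Keratin genes lie in a type II cluster on chromosome 12, which also holds the type I gene KRT18, and a type I cluster on chromosome 17, with 25 members of this table in each. Along chromosome 12 the genes that passed a fold of 2 in any line, all of them lower, lay at the ends. KRT80 and KRT7 are neighbours at one end, and KRT8 and KRT18 at the other with KRT4 near them. In A549 only KRT80 and KRT4 of these passed it. The 18 keratins from KRT81 to KRT3 that lie between passed no threshold, nor did KRT79 and KRT78 between KRT4 and KRT8. All of these but KRT81, KRT83 and KRT6B were near the low end in all 6 groups, where a fall had less room to show. Along chromosome 17 KRT15 and KRT19, which fell, are direct neighbours, and KRT14, which rose in HCC827, lies 1 gene beyond KRT19, with KRT9 between them. KRT20 and KRT34 lay apart, between neighbours that passed no threshold and were near the low end in all groups. KRT222, which rose in A549, is the first of these genes along chromosome 17.

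**Figure D5:**
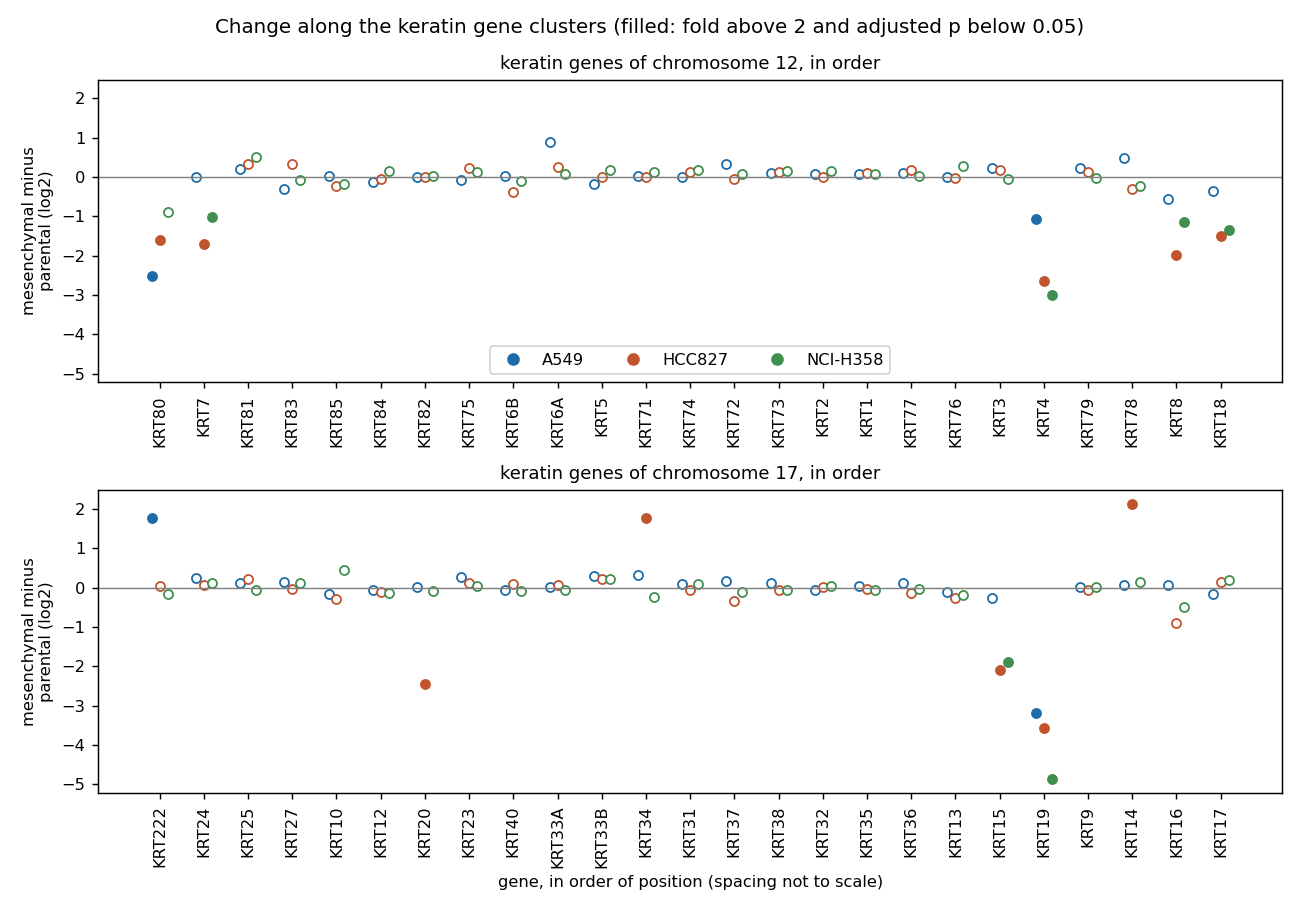
Mesenchymal minus parental difference (log2) of the 25 keratin genes of chromosome 12 and the 25 of chromosome 17, in gene order (spacing not to scale), by line; filled circles passed a fold above 2 with an adjusted p below 0.05. On chromosome 12 the filled circles sit at KRT80 and KRT7 and at KRT4, KRT8 and KRT18; on chromosome 17 neighbours KRT15 and KRT19 go down.

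Genes that work with these filaments were counted by list, at a fold above 2 and an adjusted p below 0.05, where 3.87%, 6.58% and 5.42% of all genes fell in A549, HCC827 and NCI-H358. Of 11 transcription factors known to act on keratin genes, 6, 8 and 10 fell in these lines (54.5%, 72.7% and 90.9%), with medians of -1.0, -1.28 and -3.03. ELF3, an epithelial ETS factor, fell in all 3 (-3.06, -5.37 and -3.94; adjusted p = 1.56e-12, 1.32e-15 and 7.76e-14). GRHL2, a grainyhead factor of epithelia, fell in HCC827 and NCI-H358 (-3.89 and -3.96; adjusted p = 1.80e-12 and 1.71e-12) and was near the low end in A549 from the start (-0.05, adjusted p = 0.823). TP63, the master factor of basal cells, fell in NCI-H358 (-4.98, adjusted p = 1.10e-14), rose in A549 (1.81, adjusted p = 3.55e-09) and differed by -0.27 in HCC827 (adjusted p = 0.102). Of 6 transcription factors known to drive EMT, 1 rose and 1 fell in A549, and 3 rose in HCC827 and 3 in NCI-H358 (16.7%, 50% and 50% higher, against 4.15%, 4.89% and 3.96% of all genes).

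A list of 15 genes held linkers of the cytoskeleton and parts of junctions, not all of them specific to intermediate filaments. Of these, 5, 5 and 9 fell in A549, HCC827 and NCI-H358 (33.3%, 33.3% and 60.0%, against the same 3.87%, 6.58% and 5.42%). The medians were -0.34, -0.43 and -1.08. CTNNA1, among the 9 in NCI-H358, had both means near the low end (5.60 and 4.52). The desmosomal plakophilin PKP2 (-2.27, -3.70 and -3.18; adjusted p = 3.18e-09, 4.04e-12 and 3.55e-11) and the plakin PPL (-1.49, -3.79 and -3.91; adjusted p = 2.27e-05, 1.52e-10 and 1.26e-10) fell in all 3 lines. DSP, the plakin that anchors keratins at desmosomes, differed by 0.92, 0.01 and -0.49 and passed no fold of 2. Of 16 partners of the nuclear lamina 3, 1 and 2 fell in A549, HCC827 and NCI-H358 (18.8%, 6.25% and 12.5%, the share in HCC827 below that of all genes), among them SYNE2, a giant linker between the nucleus and the cytoskeleton, in A549 and NCI-H358 (-1.30 and -2.41; adjusted p = 7.37e-06 and 3.32e-09). Of 11 cornified envelope genes IVL rose in A549 (1.09, adjusted p = 1.57e-05) with both means near the low end, and no other passed. Of 5 further intermediate filament genes outside the set, SYNC, a partner of desmin, rose in HCC827 and NCI-H358 (1.43 and 1.41; adjusted p = 1.57e-08 and 2.21e-08) and differed by -0.64 in A549 (adjusted p = 0.000207), the signs that NES and SYNM had; IFFO1 rose in HCC827 (1.60, adjusted p = 5.87e-10) and IFFO2 fell in NCI-H358.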

How the data were processed

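RNA of 6 groups was hybridized to Affymetrix U133 Plus 2.0 arrays, 3 a group. The deposited log2 values came from the authors' RMA normalization, with 1 probe set per gene. The rule for choosing it is not given in the sources used here. All 18 columns were mapped to samples by their titles. Array medians lay between 6.31 and 6.47, and the number of arrays limits the precision. Groups were compared with limma 3.58.1 (R 4.3.3), in 1 fit of 18 arrays and 6 groups with empirical Bayes moderation, and p-values were adjusted by Benjamini-Hochberg over 19849 genes. The fit was tested on simulated data. Members and gene lists were chosen with earlier results of these data known. Named with values were members past a fold of 5 with an adjusted p below 1e-05 in any line, and VIM, KRT5, KRT7, KRT8, KRT14, KRT17, KRT18, KRT19, NES, SYNM, LMNA, LMNB1 and LMNB2; KRT10, KRT15, KRT20, KRT34, KRT81, KRT222, INA, NEFL and the named list genes were chosen after their values were seen. KRT6C, KRT26, KRT28, KRT39 and KRT86 are not analysed here. Gene order and promoters came from RefSeq (GRCh38.p14), to which all 63 members were matched by gene ID. Alternatives were other variance models, a fit per line, a filter on dim genes, a plain t-test, other thresholds and each array left out.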

Additional observations from a re-analysis of the deposited data

Results flagged for a closer look

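NES changed unequally between lines in limma's fit, by more than a fold of 5. Relative to the change in A549, that in HCC827 was higher by 3.15 (log2, adjusted p = 1.59e-06) and that in NCI-H358 by 3.07 (adjusted p = 2.34e-06), and both comparisons use the same 6 A549 arrays. One of the A549 derivative's arrays lay apart from its other 2, at 6.09 against 5.10 and 4.85. The means of mesenchymal A549 cells and of parental HCC827 cells, 5.35 and 5.48, were near the low end.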

How the results depend on the processing

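Over the alternatives that kept all arrays, 335 values of single members stayed on their side of the thresholds and 1 did not. The fall of KRT20 in HCC827 (-2.44) no longer passed with a plain t-test. These alternatives use the same differences of group means, so they could not change a direction. With 1 array left out, 1270 values stayed on their side; the others are given with KRT7, KRT4, NES and SYNM above. Counts at the study's thresholds moved most with the thresholds. At a fold above 2 with an adjusted p below 1e-05, A549 had 2 members higher and 4 lower, HCC827 5 and 7, and NCI-H358 2 and 7. At a fold above 10, 0 fell in A549, 1 fell in HCC827 and 1 fell in NCI-H358. With a plain t-test 0 fell in each line, since 3 arrays a group gave no adjusted p below 1e-05 among the members; a separate fit per line left 1 lower in HCC827 (KRT19). The filter on dim genes, which leaves 12814 genes and drops KRT14, KRT20, KRT34 and KRT222 among others, gave 1 higher in A549 and 3 higher in HCC827 at a fold above 2, and 2 members that changed unequally between NCI-H358 and HCC827. Leaving out 1 array gave 0 to 1 higher at the study's thresholds in HCC827 (NES, without the third parental or second mesenchymal array) and 0 to 1 in NCI-H358 (VIM, without the first parental or first mesenchymal array). No paired analysis was possible because the labels give no replicate numbers that groups share. Probe sets at the low end of the scale, VIM's among them, limit what a small difference shows.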
